A study of Mus musculus with 12 samples.

Results

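The GIMAP family (GTPases of immunity-associated proteins) was followed in CD4+ T cells of B6 and SLE123 mice given the tolerance-inducing antibody anti-CD45RB or left untreated. Its members were taken by symbol: Gimap1, Gimap3, Gimap4, Gimap5, Gimap6, Gimap7, Gimap8 and Gimap9, which are 8 of the 35275 genes measured. All 8 were among the 13115 genes that averaged 0.5 FPKM or more and were tested. FPKM counts the fragments of a gene relative to transcript length and to the total mapped in that library.

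RNA-Seq was done on CD4+ T cells purified by magnetic sorting from 12 mice, 3 in each of 4 groups. B6 is C57BL/6 (C57BL/6J in the methods), and SLE123 is a lupus-prone line that carries the Sle1, Sle2 and Sle3 loci of NZM2410 on chromosomes 1, 4 and 7 of a B6 background. Treated mice of either strain received 100 μg of anti-CD45RB (clone MB23G2), and the study's methods describe 5 injections over days 0 to 7. Control mice of either strain were untreated, so no group received a control antibody. The methods give an age of 9 weeks for the mice that gave the cells. With the RNA-Seq result the mice are described as female, with a range of 9 to 12 weeks. The methods also describe a further sort into CD25+ and CD25- cells, and the sample titles name no such fraction.

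GIMAP proteins share a GTP-binding domain related to the plant AIG1 protein, and several are anchored in intracellular membranes such as those of the endoplasmic reticulum, mitochondria and lysosomes. They are known mainly from lymphocytes, where the loss of some members leaves animals with few peripheral T cells. In the mouse the genes lie side by side in a single cluster. Sle1, Sle2 and Sle3 are on other chromosomes than this cluster.

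Libraries held 13562933 to 23641603 fragments. The 9 T cell markers, among them Cd3e, Cd4 and Lck, summed to between 1994 and 2538 FPKM and were above 0 in every group. RNA of other cells differed between strains and treatments. Immunoglobulin genes took 0.0895 to 0.336% of the fragments in B6 and 2.51 to 12.2% in SLE123, with the highest share in untreated SLE123 replicate 3, which also had the lowest T cell sum. The sum of 8 B cell markers was 4.22 to 5.62 FPKM in untreated B6, 25.9 to 33.6 in treated B6, 34.1 to 54.4 in treated SLE123 and 59.5 to 232 in untreated SLE123. Sums of 6 liver genes were 40.2 to 47.2 FPKM in the 6 B6 libraries and in treated SLE123 replicate 1 (44.9), and at most 0.368 in the other 5 libraries. Endothelial cells also express GIMAP genes. Of 5 endothelial markers only Pecam1, which T cells express as well, was above 0.444 FPKM in any library.

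The cluster spans chr6:48647234-48770851 of GRCm38. From its low end, Gimap8 lies at chr6:48647234-48660875, Gimap9 at chr6:48676129-48679114 and Gimap4 at chr6:48684549-48692060, all on the plus strand. Gimap6 follows on the minus strand at chr6:48701582-48708225. Gimap7 (chr6:48718621-48724636), Gimap1 (chr6:48739054-48743795) and Gimap5 (chr6:48746197-48754210) are again on the plus strand, and Gimap3 closes the cluster on the minus strand at chr6:48764464-48770851. All are protein-coding.

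Some values of the family cannot be fully separated. Gimap3 and Gimap5 share a stretch of 720 transcript bases at 97.9% identity, so fragments from it could have been given to either gene. The antisense transcript Gimap1os covers 1107 exonic bases of Gimap1, 36.0% of its exons, and was itself at 16.7 to 24.1 FPKM. Whether the counting used the strand is not given in the sources used here. A readthrough gene, Gm28053, shares 198 exonic bases with Gimap1, 153 with Gimap5 and 81 with Gimap7, at 0.71 to 4.36 FPKM.

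Gimap6 was called lower in SLE123 (limma adjusted p under 0.05) under every alternative setting described further on, in both strain comparisons. Gimap7 was called higher in 16 of 17 settings in untreated mice but in 4 of 18 in treated mice. Gimap5 was called higher in 17 of 18 settings in treated mice and in none in untreated mice. Gimap9 was called lower in 11 of 17 and 16 of 18. The promoters of Gimap6, Gimap7 and Gimap5 are shown here. Each is the 250 bases before the annotated start, 5′ to 3′ on the gene's own strand, from RefSeq (GRCm38.p6). They lie at chr6:48708245-48708494 on the minus strand for Gimap6, at chr6:48718371-48718620 on the plus strand for Gimap7 and at chr6:48745947-48746196 on the plus strand for Gimap5. Capitals mark matches, on either strand, to the letters searched for lymphocyte factors: CCGGAA or CAGGAA (ETS), TGTGGT (RUNX), CCACCC (KLF), TGACG (CREB half-site) and CTTTGAT (TCF/LEF). No matches overlap each other.
Gimap6: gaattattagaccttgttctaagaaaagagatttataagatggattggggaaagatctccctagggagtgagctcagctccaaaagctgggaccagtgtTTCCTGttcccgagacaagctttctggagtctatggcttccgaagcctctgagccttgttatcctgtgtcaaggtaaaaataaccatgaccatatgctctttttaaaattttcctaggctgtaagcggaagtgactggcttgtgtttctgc
Gimap7: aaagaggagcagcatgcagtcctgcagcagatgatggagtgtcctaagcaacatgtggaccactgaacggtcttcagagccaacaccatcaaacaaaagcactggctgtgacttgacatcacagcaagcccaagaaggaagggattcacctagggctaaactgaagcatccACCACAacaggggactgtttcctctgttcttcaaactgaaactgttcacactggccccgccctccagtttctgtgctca
Gimap5: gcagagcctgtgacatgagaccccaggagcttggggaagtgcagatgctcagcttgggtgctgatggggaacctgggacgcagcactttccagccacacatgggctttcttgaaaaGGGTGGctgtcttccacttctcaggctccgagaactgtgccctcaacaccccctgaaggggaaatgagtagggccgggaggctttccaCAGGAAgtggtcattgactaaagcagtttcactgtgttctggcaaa

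The Gimap6 stretch holds an ETS match, the Gimap7 stretch a RUNX match, and the Gimap5 stretch a KLF match followed by an ETS match. Of the 9 annotated starts of the 8 genes, 5 held ETS letters, each of a different gene. Among 32536 mouse promoters of this length, 35.0% hold them. KLF letters were found at 5 starts, each of a different gene (28.1% of all promoters). RUNX letters were found at 3 starts, those of Gimap1, Gimap4 and Gimap7 (14.0%). CREB half-site letters (17.9%) and TCF/LEF letters (3.21%) were found in none of the 9. These matches are descriptions of the letters only.

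The GIMAP genes were among the most abundant transcripts of these cells. Gimap3 led with a mean of 966 FPKM over the 12 mice (758 to 1113), a level above 99.5% of the genes tested. Gimap4 followed at 465 (380 to 532) and Gimap6 at 245 (160.3 to 305). These 3 levels did not overlap between neighbours in this order.

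Gimap1 was at 160.3 FPKM (142 to 215), Gimap8 at 141 (113 to 167) and Gimap9 at 94.8 (66.8 to 115). Gimap7 at 56.3 (40.6 to 76.9) and Gimap5 at 49.2 (43.2 to 56.2) were the lowest, and even Gimap5 exceeded 88.4% of the genes tested. Neighbours in this part of the order overlapped over the 12 mice. Within a library, Gimap8 was above Gimap9 and Gimap9 above Gimap7 in 12 of 12, whereas Gimap6 was above Gimap1 in 11, Gimap1 above Gimap8 in 9 and Gimap7 above Gimap5 in 8.

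**Figure D1:**
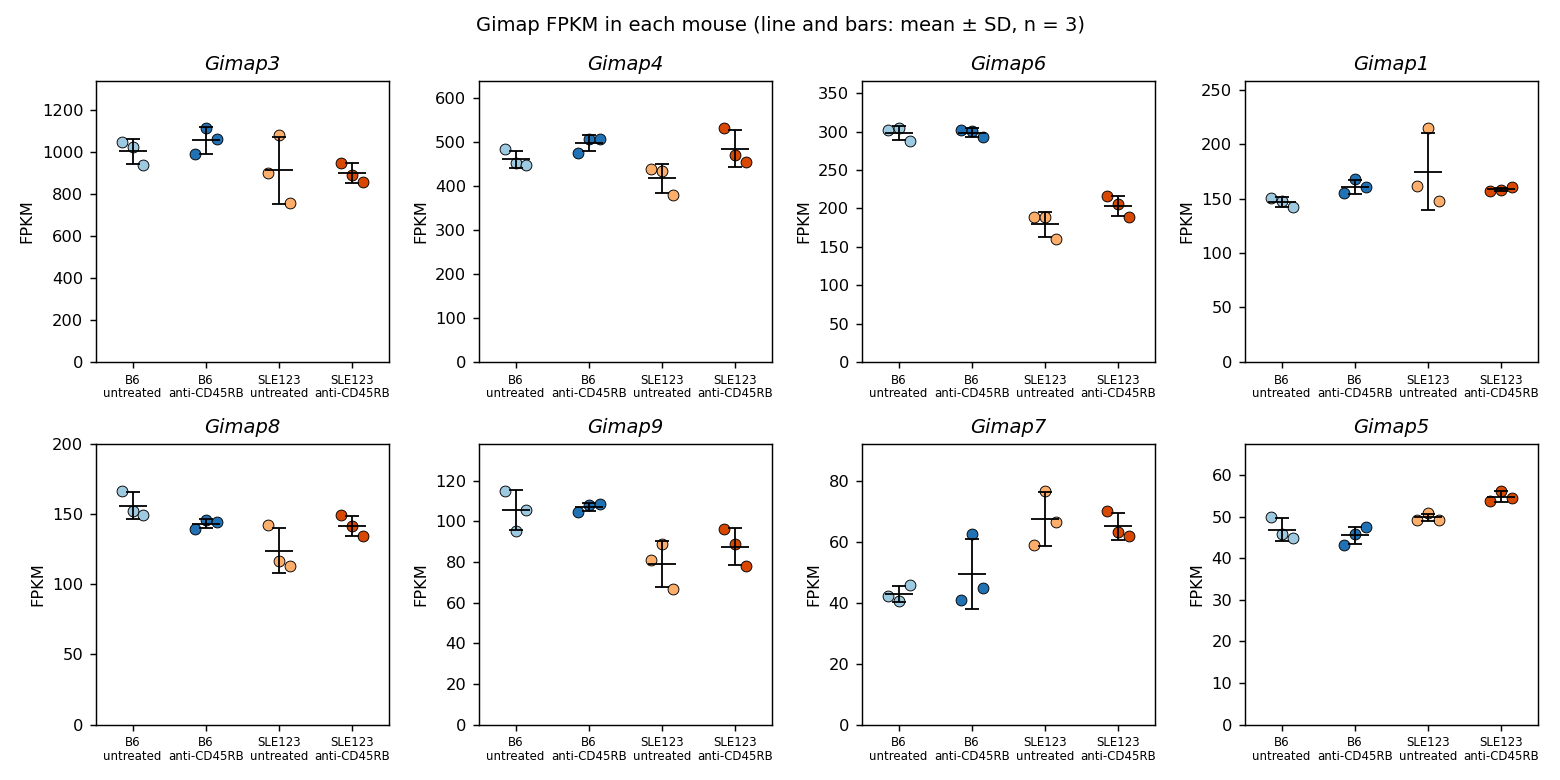
FPKM of the 8 Gimap genes in each of 12 mice, by strain and treatment, with group means and SD (n = 3) on axes that start at 0. Gimap6 was 288 to 305 in the 6 B6 mice and 160.3 to 216 in the 6 SLE123 mice, while Gimap7 was at least 59.2 in every SLE123 mouse and at most 45.7 in 5 of 6 B6 mice.

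Summed over the 8 genes, the family reached 2258 ± 99.4 FPKM (SD, n = 3) in untreated B6 and 2355 ± 102 in treated B6. The sum was 2003 ± 254 in untreated SLE123 and 2095 ± 118 in treated SLE123. These sums are given without a test. In terms of fragments the family took 0.377% of a library in untreated B6, 0.386% in treated B6, 0.316% in untreated SLE123 and 0.340% in treated SLE123. In bulk samples fewer cells of a type and less RNA per cell cannot be told apart.

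The strain comparison asks how lupus-prone CD4+ T cells differ from B6 cells, and was made once in untreated mice and once in treated mice. Gimap6 was lower and Gimap9 was lower in SLE123 in both. Gimap7 was higher in untreated mice and Gimap5 in treated mice. Of the 8 members, 4 passed an adjusted p of 0.05 (limma) in untreated mice, 1 higher and 3 lower, beside 42.9% of all genes tested (22.8% higher and 20.1% lower). In treated mice 4 passed, again 1 higher and 3 lower, beside 52.1% of all genes (29.6% higher and 22.5% lower). The number of members called was thus near the background in both. Groups were separate for 5 members in untreated mice, beside 58.6% of all genes, and for 4 in treated mice, beside 61.8%.

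Gimap6, which binds the autophagy protein Gabarapl2 and whose loss leaves mice short of T cells, differed most. Its FPKM was 302, 305 and 288 in untreated B6 and 189, 189 and 160.3 in untreated SLE123. In treated mice it was 303, 301 and 292 in B6 and 216, 205 and 189 in SLE123. Every SLE123 mouse was below every B6 mouse.

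The log2 fold change of Gimap6, on the log2(FPKM + 1) scale, was -0.74 (SE 0.10, adjusted p = 0.0014, limma) in untreated mice, which put its level at 0.601 times that of B6. In treated mice it was -0.56 (SE 0.05, adjusted p = 0.00026), or 0.681 times. Its size exceeded that of 81.2% of the genes tested in untreated mice and of 79.8% in treated mice. Gimap6 was called under all 17 alternative settings tried in untreated mice (log2 -1.12 to -0.64) and all 18 tried in treated mice (-0.85 to -0.46). Treated SLE123 replicate 1, the SLE123 library that held liver RNA as the B6 libraries did, had 216 FPKM of Gimap6, below the 288 of the lowest B6 library. This was the highest Gimap6 value of any SLE123 library, and the library also had the lowest immunoglobulin share of that strain (2.51%). Apart from this library, liver RNA was split by strain, and its part was not tested.

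Gimap9, a less studied member of the family, moved most like Gimap6. Its FPKM was 115, 95.6 and 105 in untreated B6 and 81.3, 89.0 and 66.8 in untreated SLE123. Treated mice had 105, 108 and 109 in B6 and 96.1, 88.7 and 78.2 in SLE123. The groups did not overlap in either comparison.

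The log2 fold change of Gimap9 was -0.42 (SE 0.13, adjusted p = 0.032) in untreated mice and -0.29 (SE 0.07, adjusted p = 0.014) in treated mice. It was called in 11 of 17 alternatives in untreated mice and in 16 of 18 in treated mice. In untreated mice the call was lost without B6 replicate 3 (adjusted p = 0.122), 4 (0.0528) or 5 (0.0932), without SLE123 replicate 3 (0.0619), with no filter on low values (0.0782) and with centring on T cell markers (0.0587).

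Gimap7, which can stimulate GTP hydrolysis in other members by dimerizing with them, went the other way. It was at 42.4, 40.6 and 45.7 FPKM in untreated B6 and at 59.2, 76.9 and 66.6 in untreated SLE123, with no overlap. The log2 fold change was 0.64 (SE 0.11, adjusted p = 0.0035), a level 1.55 times that of B6. With values rescaled to a common FPKM total (TPM) it was 0.26 and the call was lost (limma adjusted p = 0.123). The median log2 fold change of all genes was -0.38 under that setting.

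In treated mice Gimap7 was at 41.0, 62.6 and 44.7 FPKM in B6 and at 70.2, 63.2 and 62.0 in SLE123. B6 replicate 3 stood apart from the other 2 treated B6 mice and lay within the SLE123 range. The log2 fold change was 0.41 (SE 0.15, adjusted p = 0.0544), which missed the threshold. It was called in 4 of 18 alternatives, and without B6 replicate 3 it was 0.59 with an adjusted p of 0.0015.

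Gimap5 and Gimap3 are close relatives, and Gimap5 is the member whose loss is best known to cause lymphopenia, in rats as well as in mice. Gimap5 was at 50.0, 45.7 and 44.9 FPKM in untreated B6 and 49.3, 50.8 and 49.3 in untreated SLE123. These groups overlapped, with a log2 fold change of 0.09 (SE 0.07, adjusted p = 0.367). In treated mice it was at 43.2, 45.7 and 47.4 in B6 and 53.6, 56.2 and 54.4 in SLE123.

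There every SLE123 mouse was above every B6 mouse, and the log2 fold change of Gimap5 was 0.26 (SE 0.04, adjusted p = 0.0028). With TPM this call was lost, at 0.09 (limma adjusted p = 0.247), where the median of all genes was -0.14. Gimap3, the most abundant member, was at 988, 1113 and 1059 FPKM in treated B6 and at 948, 891 and 856 in treated SLE123, without overlap. Its log2 fold change of -0.23 (SE 0.06, adjusted p = 0.022) thus had the opposite sign to that of Gimap5.

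Gimap3 was called in 9 of 18 alternatives in treated mice, and with quantile normalization it was at -0.082 (adjusted p = 0.473). The call was lost without treated B6 replicate 3 (adjusted p = 0.0689) or 5 (0.0762), and without treated SLE123 replicate 2 (0.0695) or 3 (0.0732). In untreated mice Gimap3 was at 1001 ± 58.1 FPKM in B6 and 911 ± 160.1 in SLE123 (SD, n = 3), and the groups overlapped (log2 -0.15, SE 0.17, adjusted p = 0.507).

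Gimap1, which mature T and B cells need to persist, was not called in either strain comparison. It was at 151, 148 and 142 FPKM in untreated B6 and 162, 215 and 148 in untreated SLE123, a log2 fold change of 0.23 (SE 0.14, adjusted p = 0.220). The value of SLE123 replicate 2 stood well above the others. In treated mice it was 161 ± 6.46 in B6 and 158 ± 1.78 in SLE123 (SD, n = 3; log2 -0.023, adjusted p = 0.654).

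Gimap4, which is reported to hasten the death of T cells once apoptosis has begun, was at 460.4 ± 19.7 FPKM in untreated B6 and 418 ± 32.8 in untreated SLE123 (SD, n = 3). The groups did not overlap, but the log2 fold change of -0.14 (SE 0.11, adjusted p = 0.336) did not pass. In treated mice it was 497 ± 18.4 in B6 and 485 ± 41.4 in SLE123, with an adjusted p of 0.675.

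Gimap8, the largest member, which carries several GTP-binding domains in tandem, was at 167, 152 and 149.6 FPKM in untreated B6 and at 143, 117 and 113 in untreated SLE123. All 3 SLE123 mice were below the B6 mice, with a log2 fold change of -0.34 (SE 0.11, adjusted p = 0.0456). It was called in 8 of 17 alternatives, and the call was lost without B6 replicate 3 (adjusted p = 0.168), 4 (0.115) or 5 (0.0982), or without SLE123 replicate 2 (0.0820) or 3 (0.101). Treated mice had 143 ± 3.21 in B6 and 142 ± 7.21 in SLE123, and Gimap8 did not pass there (log2 -0.013, adjusted p = 0.831).

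**Figure D2:**
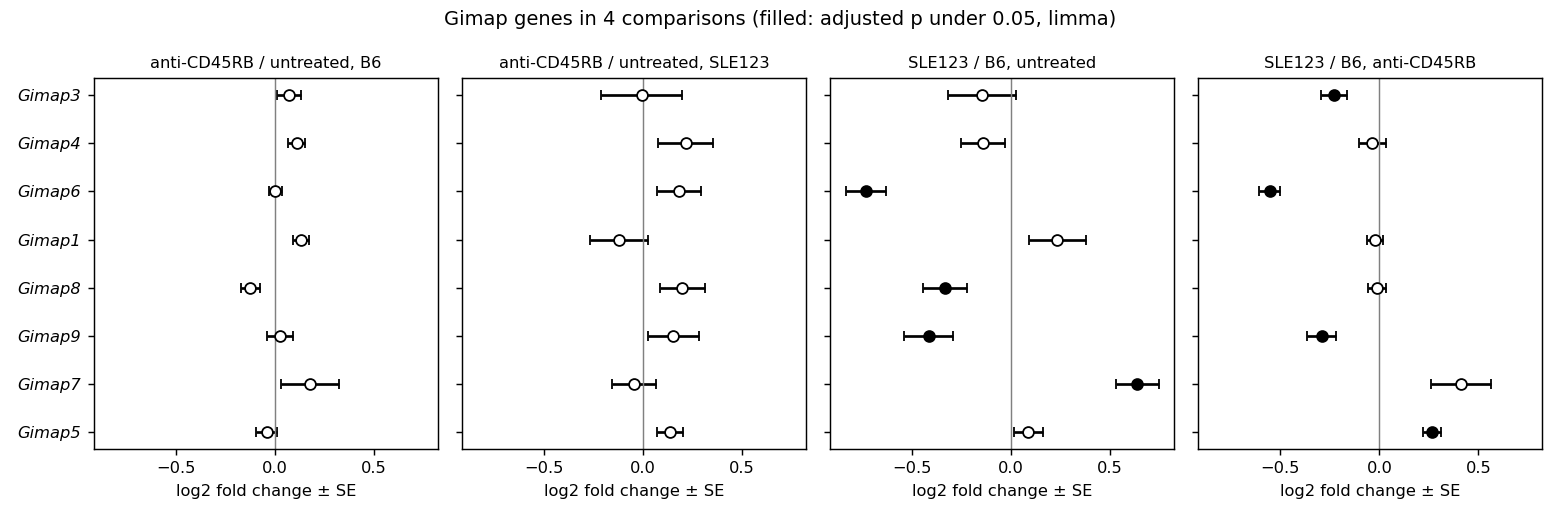
Log2 fold changes of the 8 Gimap genes, with standard errors, in each of 4 comparisons of 3 against 3 mice (filled circles passed an adjusted p of 0.05 in limma). Gimap6 lies at -0.74 and -0.56 in the strain comparisons and near 0 in treated against untreated B6, and no member is filled in either treatment comparison.

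By position, the member that was lowest in SLE123 relative to B6 and the member that was highest were next to each other. Gimap6 and Gimap7 are adjacent genes on opposite strands, with log2 fold changes of opposite sign in both strain comparisons, although that of Gimap7 in treated mice missed the threshold (adjusted p = 0.0544). Gimap9, lower, and Gimap3, also lower in treated mice, lie in different parts of the cluster.

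**Figure D3:**
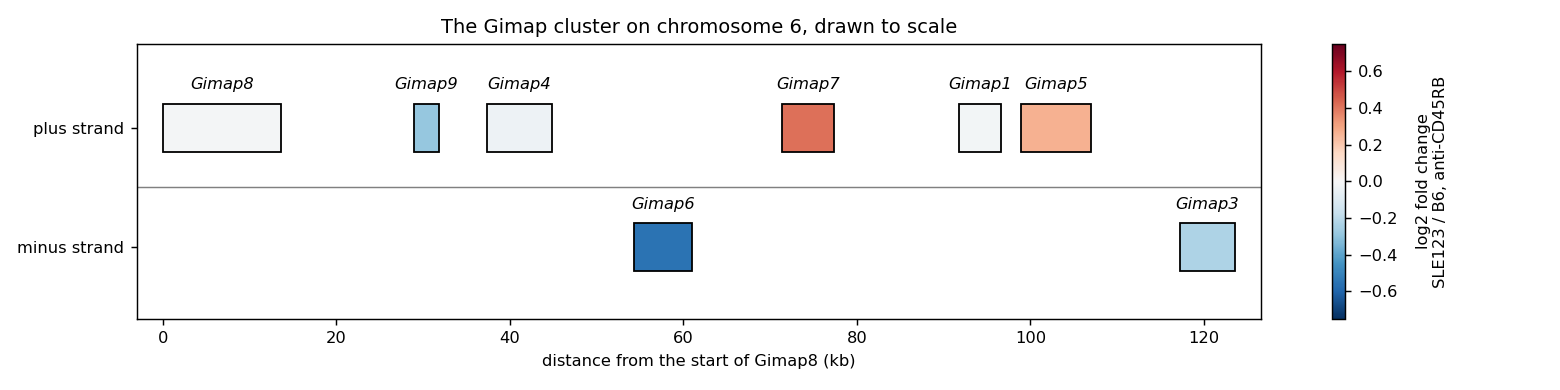
The Gimap cluster drawn to scale in kilobases from the start of Gimap8, with plus-strand genes above and minus-strand genes below, coloured by the log2 fold change of treated SLE123 against treated B6. Gimap6 (-0.56, darkest blue) lies beside Gimap7 (0.41, darkest red, adjusted p = 0.0544).

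The makeup of the family was also compared as the share of each gene in the summed FPKM of all 8, a measure that does not depend on how a library is scaled. Gimap6 made up 13.2 ± 0.348% of the sum in untreated B6 and 12.7 ± 0.647% in treated B6 (SD, n = 3). Its share was 8.98 ± 0.509% in untreated SLE123 and 9.70 ± 0.191% in treated SLE123. The lowest B6 library was at 12.3% and the highest SLE123 library at 9.90%.

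Gimap7 went from 1.91 ± 0.185% in untreated B6 and 2.09 ± 0.403% in treated B6 to 3.39 ± 0.447% and 3.11 ± 0.0567% in the same groups of SLE123. Gimap5 was at 2.07 ± 0.0495% and 1.93 ± 0.0716% in untreated and treated B6, and at 2.51 ± 0.292% and 2.62 ± 0.179% in SLE123. For both genes every SLE123 library had a larger share than every B6 library. A share also rises when other members fall. In FPKM, Gimap5 overlapped between untreated strains (means of 49.8 in SLE123 and 46.8 in B6, limma adjusted p = 0.367).

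Gimap9 made up 4.67 ± 0.382% and 4.55 ± 0.131% of the sum in untreated and treated B6, against 3.94 ± 0.0955% and 4.18 ± 0.213% in SLE123. Here the groups were separate within each treatment. Gimap3 kept 42.9 to 45.3% of the sum as a group mean in all 4 groups, and Gimap4 kept 20.4 to 23.1%.

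**Figure D4:**
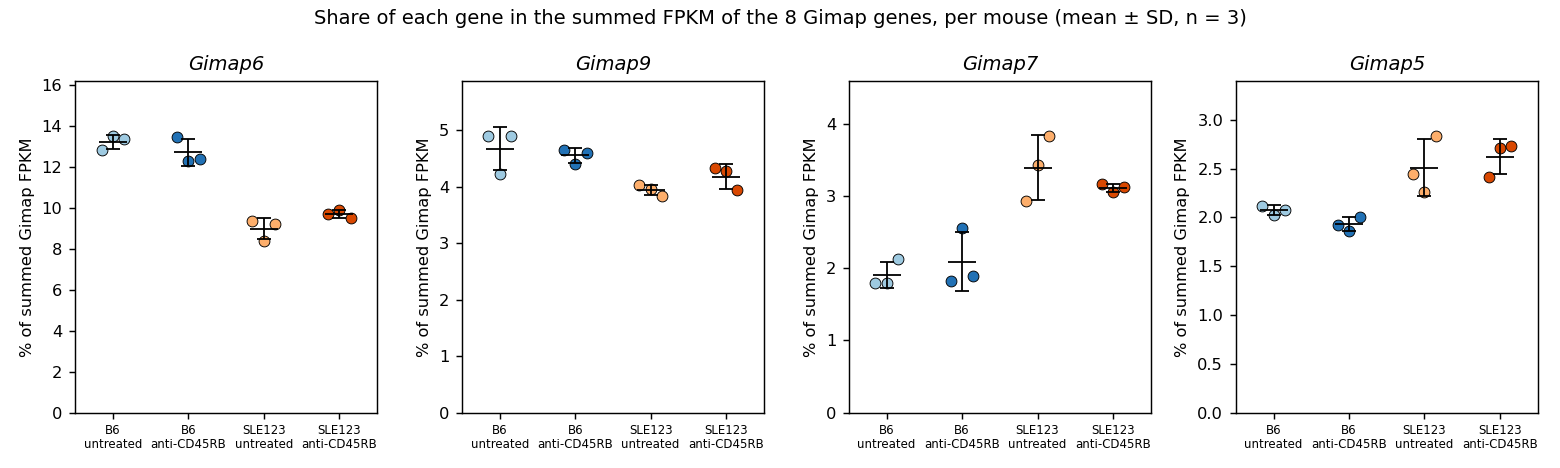
Share of Gimap6, Gimap9, Gimap7 and Gimap5 in the summed FPKM of the 8 Gimap genes in each mouse, in percent, with group means and SD (n = 3) on axes that start at 0. Gimap6 is at 12.3% or more in every B6 mouse and at 9.90% or less in every SLE123 mouse. The shares of Gimap7 and Gimap5 are larger in every SLE123 mouse than in every B6 mouse.

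B6 mice are the setting in which anti-CD45RB is used to induce tolerance. None of the 8 members passed the threshold there, beside 14.9% of all genes tested. The voom method of limma, run on recovered fragments, called none, and 3 members had an unadjusted limma p under 0.05, beside 32.3% of all genes. Median log2 fold changes were 0.05 over the members and -0.0024 over all genes.

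The smallest adjusted p was that of Gimap1, at 155, 168 and 160.3 FPKM in treated B6 against 151, 148 and 142 in untreated B6. Its log2 fold change was 0.13 (SE 0.04, adjusted p = 0.0659), and the groups did not overlap. Its antisense neighbour Gimap1os was called lower in the same comparison (log2 -0.18, SE 0.05, adjusted p = 0.0448). It was named after its value was seen.

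Gimap8 was at 139.5, 146 and 144 FPKM in treated B6, under the 149.6 to 167 of untreated B6 (log2 -0.12, SE 0.05, adjusted p = 0.119). Gimap4 had a log2 fold change of 0.11 (SE 0.04, adjusted p = 0.137). Gimap6 was at 299 ± 5.58 FPKM in treated and 298 ± 9.19 in untreated B6 (SD, n = 3; log2 0.0024, SE 0.03, adjusted p = 0.972). Groups were separate for 2 of 8 members, beside 38.0% of all genes.

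The remaining members had log2 fold changes between -0.04 (Gimap5) and 0.18 (Gimap7), each with overlapping groups. The value of Gimap7 rested on treated B6 replicate 3 and was -0.00067 without it. After values were centred on the 9 T cell markers, a setting chosen after seeing the data that moved the median of all genes to 0.11, Gimap1 (log2 0.25, adjusted p = 0.0084) and Gimap4 (0.22, adjusted p = 0.0155) passed.

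In SLE123 mice anti-CD45RB was compared with no treatment in the same way. No member passed, beside 0.0381% of all genes tested, which was 5 genes. No member had an unadjusted p under 0.05, beside 10.4% of all genes, and voom called none. Gimap4 was at 532, 469 and 454 FPKM in treated and 439, 434 and 379.7 in untreated SLE123 (log2 0.22, SE 0.14, adjusted p = 0.542).

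Gimap6 was at 216, 205 and 189 FPKM in treated against 189, 189 and 160.3 in untreated SLE123 (log2 0.18, SE 0.11, adjusted p = 0.521). Gimap5 had a log2 fold change of 0.13 (SE 0.07, adjusted p = 0.475). Treated values of these 3 genes were all above the untreated ones, and groups were separate for 19.7% of all genes. The spread among untreated SLE123 mice, 17.6% of the mean for Gimap3 and 20.3% for Gimap1, was larger than in any other group for these genes.

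Whether the response to anti-CD45RB differed between strains was tested as the effect in SLE123 minus that in B6, over all 12 mice. No member passed, beside 3.64% of all genes tested. Unadjusted p was under 0.05 for 2 members, beside 25.1% of all genes, and voom called none. Gimap8 had the largest difference, 0.32 on the log2 scale (SE 0.12, adjusted p = 0.139), from means of 156 to 143 FPKM on treatment in B6 and of 124 to 142 in SLE123. Without untreated SLE123 replicate 1 it was 0.42 (SE 0.09, adjusted p = 0.0095), in a fit that called 22.2% of all genes. Gimap5 had the next smallest adjusted p, at 0.18 (SE 0.08, adjusted p = 0.191).

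Genes that act with the family or mark the state of the T cell were examined beside it. The first list holds 14 genes for reported GIMAP partners and the survival machinery. In untreated mice 3 were higher and 4 lower in SLE123, beside 42.9% of all genes called, and in treated mice 3 were higher and 7 lower, beside 52.1%. Median log2 fold changes were 0.015 and -0.12. Gabarapl1, an autophagy protein of the family that Gimap6 binds, was at 11.2 ± 0.666 FPKM in untreated SLE123 and 2.93 ± 0.668 in untreated B6 (SD, n = 3; log2 1.65, SE 0.13, adjusted p = 0.00012).

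In treated mice the difference of Gabarapl1 was 1.15 (SE 0.09, adjusted p = 0.00014). Gabarapl2 did not pass in either (log2 0.03, adjusted p = 0.837, and -0.13, adjusted p = 0.0706). Il7r, the receptor for the survival cytokine IL-7, was lower in SLE123 (log2 -0.87, SE 0.19, adjusted p = 0.0105 untreated, and -1.04, SE 0.14, adjusted p = 0.00089 treated). Bcl2, which restrains the mitochondrial death pathway, was lower as well (log2 -0.47 and -0.38), while its relative Bcl2l1 was higher (log2 0.33 and 0.19).

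With anti-CD45RB in B6, 2 of these 14 genes rose, beside 14.9% of all genes called, namely Bcl2l1 (log2 0.39, SE 0.05, adjusted p = 0.0057) and the chaperone gene Hspa8 (0.37, SE 0.09, adjusted p = 0.036). None passed in SLE123 or in the test of the difference between strains, beside 0.0381% and 3.64% of all genes.

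The second list holds 13 regulators of quiescence and the naive state. In SLE123, 12 of the 13 were called lower in untreated mice, beside 20.1% of all genes, and 12 in treated mice, beside 22.5%. Klf2 was also lower in untreated mice without passing (log2 -0.60, limma adjusted p = 0.0746). Median log2 fold changes were -0.97 and -0.75 beside -0.03 and 0.03 over all genes. The chromatin organizer Satb1 (log2 -1.77 and -1.19), the transcription factor Bach2 (-1.24 and -1.19) and the forkhead factor Foxp1 (-0.72 and -0.75) were among those called in both. The log2 fold changes of Gimap6, -0.74 and -0.56, had the same sign as those of the list genes called. Any link between them was not tested.

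In B6, anti-CD45RB raised Klf2, a quiescence factor that controls T cell traffic, by 0.73 (SE 0.04, adjusted p = 0.00036). It was at 353 ± 14.2 FPKM in treated and 212 ± 5.48 in untreated B6 (SD, n = 3). Tcf7 (log2 -0.21) and Ccr7 (-0.24), a T cell transcription factor and a lymph node homing receptor, fell. None of the 13 passed in SLE123, beside 0.0381% of all genes.

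Of 13 activation genes, 8 were called higher and 1 lower in untreated SLE123, beside 22.8% and 20.1% of all genes. In treated SLE123, 9 were called higher and 2 lower, beside 29.6% and 22.5%. Pdcd1, which encodes the inhibitory receptor PD-1, had log2 fold changes of 3.40 and 3.19, Ctla4 2.31 and 2.34, and Icos 1.57 and 1.75. Those called lower were Myc in untreated mice (log2 -0.54) and Cd69 (-0.69) and Nr4a1 (-0.28) in treated mice. In B6, anti-CD45RB lowered 1 of them, Egr2 (log2 -0.66, SE 0.12, adjusted p = 0.016), beside 14.9% of all genes called. None passed in SLE123, beside 0.0381%.

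**Figure D5:**
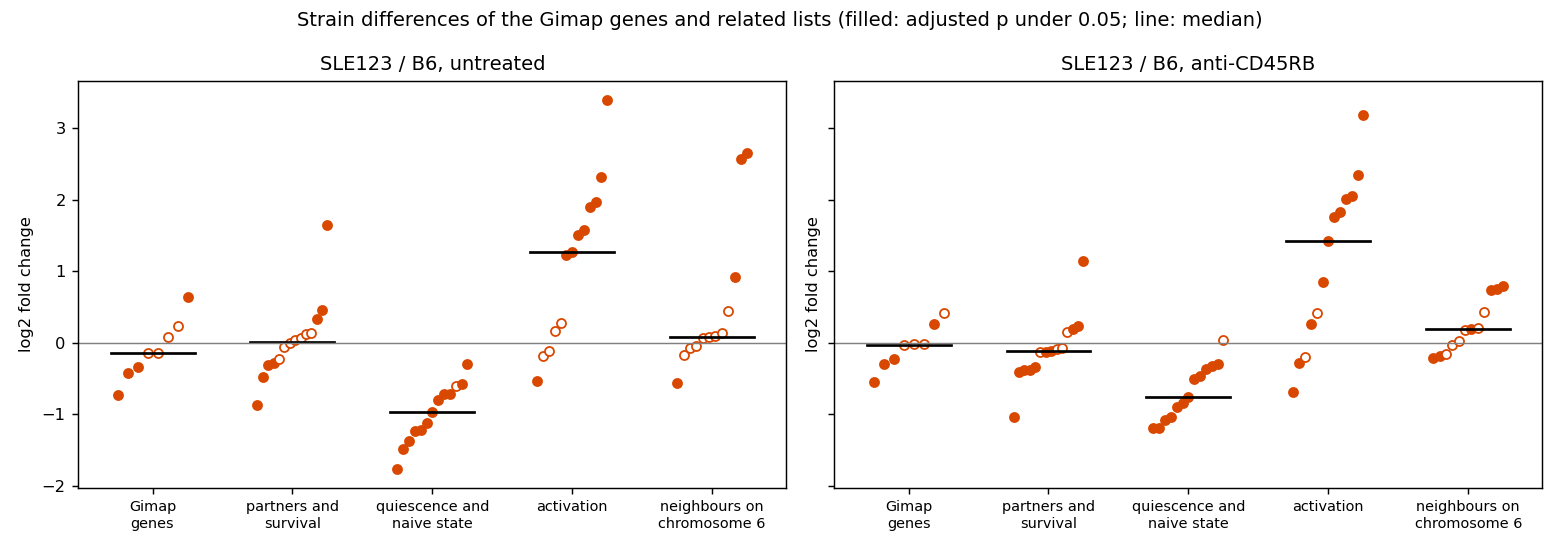
Log2 fold changes of SLE123 against B6 in untreated and in treated mice for the 8 Gimap genes and 4 related lists (1 circle per gene, filled where the adjusted p was under 0.05, with the median as a line). Medians are -0.15 and -0.03 for the Gimap genes, -0.97 and -0.75 for the quiescence list and 1.27 and 1.42 for the activation list.

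Genes on either side of the cluster on chromosome 6 were examined as well. Of 22 listed, 12 were tested. In untreated mice 3 were higher and 1 lower in SLE123, and in treated mice 4 were higher and 2 lower, beside 42.9% and 52.1% of all genes called. Tmem176a and Tmem176b, membrane proteins encoded beyond the Gimap3 end of the cluster, differed most. Their transcripts start close together on opposite strands, so their reads may not be fully separated.

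Tmem176a was at 2.30 ± 0.331 FPKM in untreated B6, 5.98 ± 1.07 in treated B6, 20.05 ± 4.34 in untreated SLE123 and 11.3 ± 2.75 in treated SLE123 (SD, n = 3). It rose with anti-CD45RB in B6 (log2 1.07, SE 0.13, adjusted p = 0.0049). The effect in SLE123 minus that in B6 was -1.86 (SE 0.27, adjusted p = 0.0045), and that of Tmem176b was -1.83 (SE 0.33, adjusted p = 0.013). Myeloid markers, summed over 8 genes, were at 4.39 to 9.30 FPKM in untreated B6, 48.7 to 114 in treated B6, 39.3 to 88.2 in untreated SLE123 and 20.3 to 47.6 in treated SLE123. By group mean they differed in the same direction as Tmem176a on treatment in either strain and between untreated strains. Between treated strains they were lower in SLE123, where Tmem176a was higher. Mean sums of B cell, plasma cell, basophil and erythroid markers ranked the 4 groups as Tmem176a did, and the other marker sums did not. The part of other cells in Tmem176a was not tested.

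The members also differed in how alike their profiles were over the 12 mice. Each profile was scaled to an SD of 1, and the mean absolute difference between profiles was taken. The most alike pair was Gimap6 and Gimap9, 0.32 SD apart, followed by Gimap3 and Gimap9 at 0.43. The least alike pair was Gimap6 and Gimap7 at 1.72. Gimap3 and Gimap5, with the most similar sequences, were 1.45 apart.

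The 5 genes whose profile was most like the mean of the family were Sms (0.27 SD), Mrpl30 (0.32), Mapre1 (0.34), Chmp3 (0.36) and Sec11a (0.36), where the median of 11193 genes was 1.04. Of these Chmp3 is on chromosome 6, and the others are on chromosomes X, 1, 2 and 7. All points share the same 12 libraries, so these distances are descriptions.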

How the data were processed

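RNA-Seq of CD4+ T cells gave 1 library for each of 12 mice, with 3 mice in each of 4 groups. Samples were grouped by their titles. The authors deposited FPKM values per Ensembl gene and library. Per the labels, mRNA was selected with poly-T beads, and the submitters' processing notes name CASAVA 1.8, STAR and mm10. The annotation and the counting program are not given in the sources used here. FPKM divides by transcript length and by all mapped fragments, so genes that take a large share of a library lower the FPKM of the others.

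Of 35275 genes, 34490 were found in GENCODE M21, which gave symbols and coordinates. Dividing by the step that 1 fragment is worth gave whole numbers (within 0.01) for 100% of the 23230 genes above 0, and with them 13562933 to 23641603 fragments per library, with a median of 16827791. A count of 3 fragments on 2000 bases is 0.0634 to 0.111 FPKM, and this limit covers counting error only. No pair of libraries of the same group agreed within sampling noise.

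Genes that averaged 0.5 FPKM or more (13115) were tested as log2(FPKM + 1) with limma 3.58.1 in R 4.3.3 (lmFit, eBayes with a trend), with Benjamini-Hochberg adjustment over all of them and a threshold of 0.05. The 6 mice compared entered each fit, and all 12 the test of the difference between strains. The authors used DESeq2, which needs counts and was not run here. Labels do not say that replicates came from separate cages or litters, so p-values measure the spread between these mice. Alternatives were another pseudocount, other filters, TPM, library totals without the 257 immunoglobulin genes, median and quantile scaling, voom on recovered fragments, eBayes without a trend, all 12 mice in 1 fit, the replicate block, each mouse left out, and, added after seeing the data, centring on T cell markers. The fit was tested on simulated data.

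The members and lists were chosen with earlier results of these data known. All 8 Gimap genes were named in the comparisons, with the called genes of each list (at most 6 by adjusted p) and the 5 genes most like the family. Activation genes called lower in SLE123 were named as well. Sequences were compared with blastn 2.17.0, using the longest coding transcript of each gene.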

Additional observations from a re-analysis of the deposited data

How the results depend on the processing

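The call of Gimap6 as lower in SLE123 held under all alternatives run, 17 in untreated and 18 in treated mice. Of all values recomputed, 670 kept their direction and side of the threshold, 28 lost the call, 16 gained one and 38 changed sign. The number of members called moved by more than 1.5 times as follows. In B6 on treatment (0 called) it was 1 after median centring, 1 after quantile normalization and 2 with centring on T cell markers. In untreated strains (4 called) it was 2 with no filter on low values, 2 with centring on T cell markers and 2 to 4 with 1 mouse left out. In treated strains (4 called) it was 2 with no filter and 2 with the replicate block. In the difference between strains (0 called) it was 0 to 1 with 1 mouse left out. The cause was not tested.

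Sample titles do not say whether replicate numbers pair the mice. Correlations of same-numbered deviations were -0.14 and -0.09 in B6, 0.14, -0.16 and 0.27 in SLE123 and 0.06 and 0.14 between treated strains. These few correlations, of deviations from means of 3 mice, cannot decide it. With the replicate block, treated strains called 3414 genes (main 6836), B6 on treatment 0 (1948), SLE123 on treatment 4 (5) and the difference between strains 34 (478). With the block, Gimap9 in B6 on treatment was -0.026 and Gimap4 in treated strains was 0.00013. No block fit was possible for untreated strains, which share 1 number.

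Scalings that moved the median log2 fold change of all genes by over 0.1 were TPM (to -0.38 in untreated strains, -0.14 in treated strains, 0.22 in SLE123 on treatment and 0.23 for the difference between strains), quantile normalization (to -0.16 and -0.11 in untreated and treated strains) and centring on T cell markers (to 0.11 in B6 on treatment, -0.085 in treated strains and -0.17 for the difference). Uncalled values that changed sign were these. In B6 on treatment, Gimap6 was -0.0078 with TPM, -0.00014 without immunoglobulin genes and -0.0035 with voom, Gimap9 was -0.022 with quantile normalization, and Gimap5 was 0.071 with centring on T cell markers. In SLE123 on treatment, TPM gave Gimap1 0.068, Gimap3 0.19 and Gimap7 0.15, and quantile normalization gave Gimap3 0.24. In untreated strains, TPM gave Gimap1 -0.15 and Gimap5 -0.29, and quantile normalization -0.10 and -0.0075. In treated strains, library totals without immunoglobulin genes gave Gimap1 0.075, Gimap4 0.062 and Gimap8 0.085. For the difference between strains, Gimap3 was 0.12 with TPM and 0.16 with quantile normalization, and centring on T cell markers gave Gimap4 -0.11, Gimap5 -0.035, Gimap6 -0.031 and Gimap9 -0.085.

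With 1 mouse left out, signs changed within these ranges. In B6 on treatment they were -0.072 to 0.0048 for Gimap5, -0.023 to 0.018 for Gimap6, -0.00067 to 0.30 for Gimap7 and -0.042 to 0.092 for Gimap9. In SLE123 on treatment they were -0.24 to 0.034 for Gimap1, -0.13 to 0.12 for Gimap3 and -0.14 to 0.051 for Gimap7. In treated strains they were -0.050 to 0.0069 for Gimap1, -0.11 to 0.0090 for Gimap4 and -0.050 to 0.023 for Gimap8. For the difference between strains, Gimap3 ranged from -0.21 to 0.048.

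Scaling also moved calls, given here as limma adjusted p. In B6 on treatment, calls were gained for Gimap1 with median centring (0.0393) and centring on T cell markers (0.0084), Gimap4 with the latter (0.0155) and Gimap8 with quantile normalization (0.0279). In untreated strains Gimap4 was gained with TPM (0.032) and quantile normalization (0.0123) and Gimap1 without immunoglobulin genes (0.0375), while Gimap7 was lost with TPM (0.123), Gimap8 without immunoglobulin genes (0.132) and with centring on T cell markers (0.151), and Gimap9 with that centring (0.0587). In treated strains Gimap1 was gained with TPM (0.0258), quantile normalization (0.0062) and centring on T cell markers (0.0339), Gimap8 with quantile normalization (0.0278) and Gimap7 without immunoglobulin genes (0.0207), while Gimap5 was lost with TPM (0.247) and Gimap3 with quantile normalization (0.473) and without immunoglobulin genes (0.0622). With 3 mice per group, differences under the spread between mice could not be detected.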

Other observations

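Besides the family mean, each member had its own closest gene over the 12 mice, chosen after the values were seen. Gimap6 was 0.083 SD from Arl5c, which encodes a small GTPase of another family, closer than any other member was to its nearest gene. Gimap9 was 0.17 from Actr3, Gimap8 0.19 from Nkapd1, Gimap7 0.20 from Bag1 and Gimap1 0.21 from Hpcal1. Gimap3 was 0.22 from Rpl28-ps1, Gimap4 0.28 from Sema4d and Gimap5 0.30 from Ngly1. These are values only, since the distances rest on the same 12 libraries.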
